A study of Mus musculus with 6 samples.

Results

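Transcription factors and cofactors of deep-layer cortical neurons were followed in newborn mouse neocortex after loss of Tcf4. They were taken by symbol from the table of gene expression, and all 10 of 10 were among the 15703 genes listed: Bcl11b, Fezf2, Ldb2, Otx1, Tbr1, Sox5, Tle4, Foxp1, Foxp2 and Zfpm2. RNA came from the whole neocortex of C57BL/6 mice at postnatal day 0. The control group of 3 mice was labelled WT, and the labels do not say whether these mice carried Cre or floxed alleles. The other 3 mice, called cKO here, had the genotype Tcf4 f/f; Emx1Cre/+, in which Cre under control of Emx1 deletes floxed Tcf4 in the dorsal lineage that forms excitatory neurons and glia of the cortex. Microglia, blood vessel cells and GABAergic interneurons arise outside that lineage and keep the gene. Each library carries its own animal code, so the 3 libraries of a group were treated as 3 animals. The p-values given per gene set the difference between groups against the spread between these libraries, moderated over all genes.

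The deep layers of the cortex, layers 5 and 6, hold the neurons that send axons out of the cortex. Subcerebral neurons of layer 5 project to brainstem and spinal cord, and Fezf2, a zinc finger repressor, directs them to that fate, with Bcl11b (also known as Ctip2) acting downstream on the growth of their axons. Corticothalamic neurons of layer 6 project to the thalamus, and Tbr1, a T-box factor, and Sox5, an HMG-box factor, restrain Fezf2 in them. Tcf4, the gene deleted here, encodes an E-protein, a basic helix-loop-helix factor that binds DNA at the E-box.

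Expression is given as FPKM, a level per kilobase of exon that can be compared between genes. How the authors scaled the libraries is not stated, but the values came on a common scale, with a median-ratio factor of 1.003 in each library. Depth was recovered approximately from the values at 25.4 M to 28.8 M reads in listed genes per library. The library sizes at which low values came out as whole reads, 23.2 M to 26.08 M, were below these totals. The reason was not tested, so read numbers are rough. The 10 factors were covered by about 357 reads (Otx1 in its lowest library) to 7372 reads (Bcl11b in its highest). Tcf4 itself read 71.2 to 75.6 FPKM in WT against 55.3 to 60.6 in cKO, so the groups did not overlap, although the value takes in all its exons and all cells. The excitatory neuron gene Neurod6 was abundant in all libraries, at 272 FPKM or more. Markers of thalamic neurons summed to 1.12 FPKM or less in any library. Each group held 1 male and 2 female libraries, read from Xist and Y-linked genes. In whole tissue, fewer cells of a type and less RNA per cell cannot be told apart.

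Of the 10 factors, 4 fell in cKO, Sox5, Foxp2, Foxp1 and Zfpm2, and 1 rose, Otx1. The other 5, Bcl11b, Fezf2, Ldb2, Tle4 and Tbr1, did not pass the test. Calls were made with limma at an adjusted p under 0.05 (Benjamini-Hochberg over all 15703 genes, n = 3 per group). By that rule 15.8% of all genes were called, 7.22% higher and 8.59% lower, against 50% of the factors. The factors had been chosen with earlier results of these data in view, so the higher share is a description. Their median log2 change was −0.07, beside 0.0017 over all genes. The groups did not overlap in 6 of the 10 factors, the 5 called and Tbr1, against 37.3% of all genes. As ratios of mean FPKM the called changes were smaller than 2-fold, the smallest in Foxp1 (17.8% lower) and the widest in Foxp2 (1.51-fold or 33.6% lower).

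The factors formed an upper and a lower band of expression. In WT, Tbr1 was highest at 43.6 FPKM, followed by Tle4 at 38.6, Ldb2 at 37.7, Fezf2 at 34.5 and Bcl11b at 33.8 FPKM. Tbr1 lay above Tle4 in all libraries, while each neighbouring pair from Tle4 to Bcl11b overlapped between libraries. Foxp1 at 15.6, Sox5 at 14.7, Zfpm2 at 11.2, Otx1 at 3.0 and Foxp2 at 2.16 FPKM made up the lower band, in which no neighbours overlapped in WT. In cKO the 4 highest, Tle4, Tbr1, Fezf2 and Ldb2, ran from 39.5 to 37.9 FPKM, each neighbouring pair overlapping. Tbr1 thus no longer stood apart, although neither Tbr1 nor Tle4 was called. Within cKO 1 and cKO 2 Tbr1 still lay above Tle4, and within cKO 3 it lay below (40.2 against 42.4 FPKM). All 5 called factors came from the lower band and none from the upper one. Among all genes at the mean levels of the lower band, 1.8 to 14.2 FPKM, 17.6% were called, and among those at the levels of the upper band, 33.9 to 41.5 FPKM, 14.6%.

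**Figure D1:**
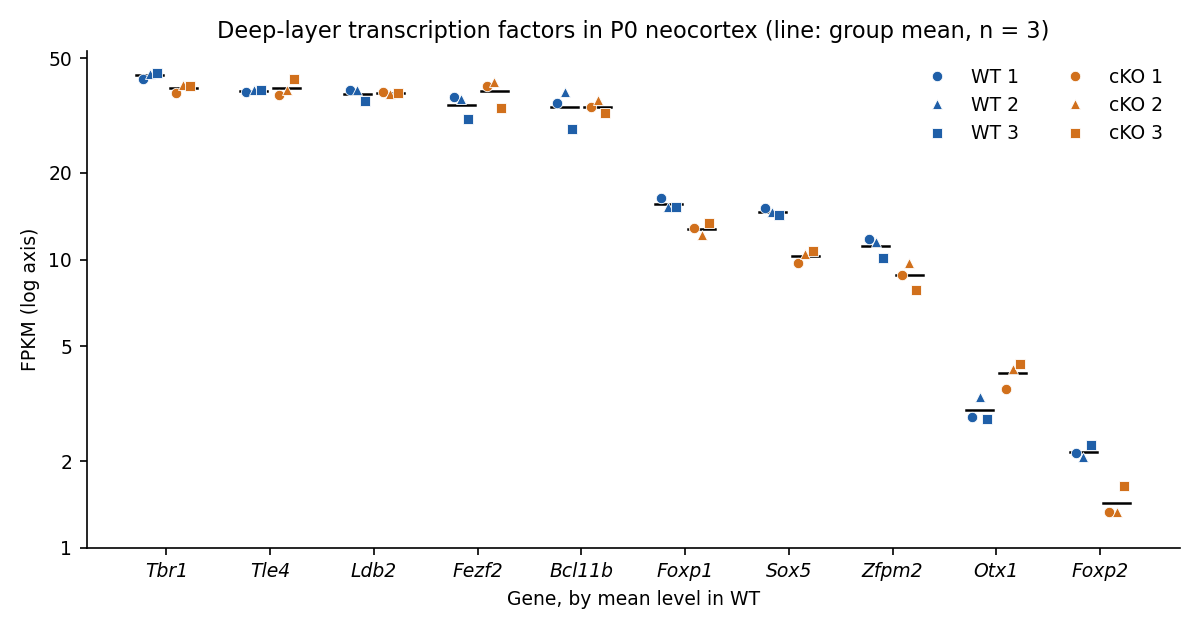
FPKM of the 10 factors in each library on a log axis, WT in blue and cKO in orange, with a symbol for each library number and a black line at each group mean (n = 3). Sox5, Foxp1, Foxp2, Zfpm2 and Tbr1 were lower in every cKO library than in any WT library, Otx1 was higher, and the groups overlapped for Tle4, Ldb2, Fezf2 and Bcl11b.

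Promoter windows from RefSeq (GRCm38.p6, the assembly of mm10) run from 250 bases before to 50 bases after a transcription start. They were held for 6 of the 10 factors in 9 windows, and none was held for Otx1, Foxp2, Ldb2 and Zfpm2. They were searched for the E-box CANNTG, the letters that E-proteins such as Tcf4 recognise, which reads as CANNTG on both strands. Of 32807 windows of the same length over all genes 72.3% held at least 1 E-box. The windows of Bcl11b, Fezf2 and Sox5 held none, that of Tbr1 held 1 (also the only one of the form CACCTG or CAGGTG beside 1 in the third Foxp1 window), the Foxp1 windows 1, 3 and 1, and the Tle4 windows 2 and 0. The form CAGCTG, found in 16.3% of all windows, was in none of the 9. Of these, 4 windows are printed, of a pair of factors that fell and a pair that did not pass, 5′ to 3′ on the strand of the gene with E-box letters in capitals. The Sox5 window, chr6:143947057-143947356, belongs to a start inside the gene, far from its annotated 5′ end. The Foxp1 window, chr6:99266466-99266765, is the second of its 3 starts. The others are Tbr1, chr2:61804203-61804502, and Fezf2, chr14:12345816-12346115.
Sox5 (minus strand): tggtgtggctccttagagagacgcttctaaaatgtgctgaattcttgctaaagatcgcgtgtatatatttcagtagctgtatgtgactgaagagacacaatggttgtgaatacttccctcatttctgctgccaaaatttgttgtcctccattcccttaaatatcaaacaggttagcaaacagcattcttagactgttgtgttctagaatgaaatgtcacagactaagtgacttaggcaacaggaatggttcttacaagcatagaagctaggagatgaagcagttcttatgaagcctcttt
Foxp1, second start (minus strand): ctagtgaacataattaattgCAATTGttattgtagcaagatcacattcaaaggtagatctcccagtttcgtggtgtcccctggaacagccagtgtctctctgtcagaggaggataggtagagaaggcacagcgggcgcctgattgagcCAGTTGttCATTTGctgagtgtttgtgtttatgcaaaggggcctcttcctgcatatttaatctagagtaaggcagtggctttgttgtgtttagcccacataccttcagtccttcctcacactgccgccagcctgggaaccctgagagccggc
Tbr1 (plus strand): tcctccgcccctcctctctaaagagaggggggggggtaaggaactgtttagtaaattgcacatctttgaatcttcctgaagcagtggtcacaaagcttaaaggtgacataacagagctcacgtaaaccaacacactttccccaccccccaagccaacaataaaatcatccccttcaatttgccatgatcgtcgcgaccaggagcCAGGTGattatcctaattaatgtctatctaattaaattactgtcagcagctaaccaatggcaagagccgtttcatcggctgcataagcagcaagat
Fezf2 (minus strand): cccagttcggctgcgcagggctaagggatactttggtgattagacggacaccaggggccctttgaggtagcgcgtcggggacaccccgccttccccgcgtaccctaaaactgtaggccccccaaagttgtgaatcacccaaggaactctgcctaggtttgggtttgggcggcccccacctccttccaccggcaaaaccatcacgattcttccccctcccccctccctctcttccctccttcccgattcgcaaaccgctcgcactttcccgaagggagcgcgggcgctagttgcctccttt

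Of the called factors only Sox5 and Foxp1 had a window, so whether E-box letters go with the changes was not tested. Of the printed pair that fell, the Foxp1 window held 3 (its other windows held 1 each) and the Sox5 window none. Of the pair that did not pass, the Tbr1 window held 1 and the Fezf2 window none. A match is a run of letters and not a site of binding, and its absence concerns only these 300 bases.

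Sox5 (ENSMUSG00000041540, chromosome 6, 143828425 to 144781977, minus strand, mm10) had the smallest adjusted p of the factors. It encodes a factor of the SoxD group that sets the order in which corticofugal neuron types differentiate. Sox5 read 15.1, 14.6 and 14.3 FPKM in the libraries WT 1, 2 and 3, against 9.72, 10.5 and 10.7 FPKM in cKO 1, 2 and 3. All cKO libraries lay under all WT libraries, and the gap between the groups was wider than the spread within either. From a WT mean of 14.7 ± 0.379 FPKM the level fell to 10.3 ± 0.513 FPKM (SD, n = 3), which was 29.8% lower and −0.47 ± 0.0657 (SE) in log2 (limma, adjusted p = 0.00134). Sox5 was the only one of the 5 called factors that stayed called when each library was left out in turn, where its adjusted p stayed at or below 0.00978. Losing a call was common in these fits. Of the 2483 genes called with all libraries, 1328 (without WT 1) to 2191 (without WT 2) were also called. An antisense gene, Sox5os1, covers 9.3% of the exon length of Sox5, and without strand information reads from that stretch cannot be assigned to one of them. Sox5 is also expressed in progenitors and in the oligodendrocyte lineage. Of 8 astrocyte and oligodendrocyte lineage markers 5 were called lower and none higher (62.5% called, against 15.8% of all genes). Their levels summed to 99.0 to 116 FPKM in WT against 72.8 to 85.5 in cKO. None of the 8 was at 0, and their part in the level of Sox5 was not tested.

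The forkhead factors Foxp1 and Foxp2, which can dimerise with each other, both fell. Foxp1 (ENSMUSG00000030067, chromosome 6, 98925338 to 99522721, minus strand) is expressed from the middle to the deep layers and in striatum. WT libraries read 16.3, 15.2 and 15.2 FPKM against 12.9, 12.2 and 13.4 in cKO, with no overlap. From 15.6 ± 0.652 FPKM its mean fell to 12.8 ± 0.613, or by 0.26 in log2 (limma, adjusted p = 0.0254). Foxp2 (ENSMUSG00000029563, chromosome 6, 14901349 to 15441977, plus strand), a layer 6 factor known from inherited speech disorder, was the least expressed of the 10. WT libraries read 2.13, 2.07 and 2.27 FPKM against 1.33, 1.33 and 1.64 in cKO, so that the highest cKO library stayed below the lowest WT library. The cKO mean of 1.43 ± 0.181 FPKM was 33.6% lower than the 2.16 ± 0.105 of WT, which is −0.38 on the log2(FPKM + 1) scale (limma, adjusted p = 0.018). That scale understates the change of low genes. Both calls were lost without WT 1, cKO 1 or cKO 2, where the adjusted p reached 0.116 for Foxp1 and 0.0749 for Foxp2 (both without cKO 2). Of the 2483 genes called with all libraries, 1328, 1340 and 1363 were also called in those fits. The paralog Foxp4 failed the test, with 15.6 ± 1.19 FPKM in WT against 15.5 ± 1.57 in cKO. Of the exon length of Foxp1 3.2% is shared with the predicted genes Gm49348 and Gm20696 on the same strand.

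Both forkhead genes and Bcl11b also mark striatal projection neurons, so markers of that tissue were read beside them. Of 16 such markers 12 were listed, none was called higher and 1 was called lower (Ppp1r1b, encoding DARPP-32, 5.88 ± 1.36 to 3.43 ± 0.307 FPKM). That is 8.33% called, against 15.8% of all genes. The call of Ppp1r1b was lost without cKO 1 (adjusted p = 0.0507), and without WT 2 the counts were 2 higher and 2 lower. The dopamine receptor Drd1, a defining gene, lay between 3.59 and 5.41 FPKM over all libraries, while Drd2, Isl1, Six3 and Gpr6 were not among the listed genes. The listed markers summed to 29.7 to 31.8 FPKM in WT against 27.7 to 30.0 in cKO, and the groups overlapped. Their part in the levels of Foxp1, Foxp2 and Bcl11b was not tested. Foxp1 and Ldb2 occur in endothelial cells as well. Of 10 endothelial markers 1 was called lower (10%, against 15.8% of all genes). It was the tight junction gene Ocln, a call lost without WT 1 or any 1 of the cKO libraries. The 10 markers summed to 51.5 to 57.1 FPKM in WT against 47.8 to 53.4 in cKO.

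Zfpm2 (ENSMUSG00000022306, chromosome 15, 40655035 to 41104592, plus strand), also known as Fog2, is a zinc finger cofactor of GATA factors that marks corticothalamic neurons. WT libraries read 11.8, 11.5 and 10.2 FPKM against 8.83, 9.76 and 7.86 in cKO. The groups were close, with WT 3 only just above cKO 2. The cKO mean, 8.82 ± 0.951 FPKM, was 1.27-fold lower than the 11.2 ± 0.888 of WT, or −0.31 in log2 (limma, adjusted p = 0.0411). The call did not hold without WT 1 (adjusted p = 0.143, the highest), WT 2, cKO 1 or cKO 3, with sex as a term (0.0618), or when limma was run with neither trend nor robust moderation (0.0521). Of its binding partners in other tissues, Gata2, Gata3 and Gata4 were not among the listed genes. The paralog Zfpm1, with means of 2.49 ± 0.333 and 1.76 ± 0.325 FPKM in WT and cKO, did not pass (limma, adjusted p = 0.0621).

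Otx1 (ENSMUSG00000005917, chromosome 11, 21994764 to 22002897, minus strand) moved the other way. This homeobox factor is expressed in cortical progenitors and later in layer 5 and 6 neurons, where it takes part in pruning axon branches. WT libraries read 2.85, 3.35 and 2.81 FPKM against 3.57, 4.17 and 4.36 in cKO. All cKO libraries were above all WT libraries, with WT 2 and cKO 1 close together. From 3.0 ± 0.299 FPKM the mean rose to 4.03 ± 0.413, which is 1.34-fold, or 0.33 in log2 (limma, adjusted p = 0.0408). The call did not hold without WT 1 (adjusted p = 0.129, the highest), WT 3, cKO 2 or cKO 3, or with sex as a term (0.0607). Of 8 progenitor markers 3 were called higher (Eomes, Mki67 and Top2a), none lower and 5 did not pass. That is 37.5% called, against 15.8% of all genes. Only 1 was called higher without WT 1, WT 3, cKO 2 or cKO 3, with a sex term, or with neither trend nor robust moderation. Their levels summed to 111 to 120 FPKM in WT against 110 to 142 in cKO. The groups overlapped in this sum. The part of these markers in the level of Otx1 was not tested.

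The layer 5 factors Fezf2, Bcl11b and Ldb2 did not pass the test. Fezf2 (chromosome 14, 12342094 to 12348189, minus strand) read 36.6, 36.0 and 30.8 FPKM in WT against 40.0, 41.5 and 33.6 in cKO. The groups overlapped, because cKO 3 lay under WT 1 and WT 2. Its log2 change was 0.15, with a 95% interval of −0.06 to 0.36 (limma, adjusted p = 0.299), which runs from 0.96-fold to 1.28-fold. Bcl11b (chromosome 12, 107910403 to 108003602, minus strand) read 34.8, 38.1 and 28.5 FPKM in WT against 33.9, 35.7 and 32.4 in cKO, so that all cKO libraries fell inside the range of WT. Its interval ran from 0.871-fold to 1.18-fold, and its SD in WT, 4.88 FPKM or 14.4% of the mean, was the widest in relative terms among the 10 factors in WT. Ldb2 (chromosome 5, 44472132 to 44799680, minus strand), a cofactor of LIM domain factors found in corticospinal neurons, read 38.7, 38.8 and 35.4 FPKM in WT against 38.3, 37.5 and 37.8 in cKO. Its interval was 0.915-fold to 1.11-fold, so for Ldb2 and Bcl11b changes of the size seen in Sox5 lay outside the 95% interval in either direction.

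Within both genotypes the third library was the lowest for Fezf2, Bcl11b and Zfpm2. WT 3 was the lowest WT library for 7 of the 10 factors, these 3, Ldb2, Sox5, Foxp1 and Otx1, and the highest for Tbr1, Tle4 and Foxp2. WT 3 and cKO 3 are different animals that share only a number.

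Tbr1 (chromosome 2, 61802930 to 61814114, plus strand), the T-box factor that specifies layer 6 neurons, read 42.4, 44.0 and 44.6 FPKM in WT against 37.9, 40.3 and 40.2 in cKO. Every cKO library was below every WT library. The means, 43.6 ± 1.13 and 39.5 ± 1.36 FPKM, differed by −0.14 on the log2 scale with a 95% interval of −0.27 to −0.01, but the gene did not pass after adjustment (limma, adjusted p = 0.129), nor did it when any library was left out. Tle4 (chromosome 19, 14448150 to 14598051, minus strand), a Groucho-type corepressor of corticothalamic neurons, read 38.3, 38.7 and 38.7 FPKM in WT against 37.4, 38.7 and 42.4 in cKO. Its WT libraries had a CV of 0.643%, the lowest of the 10 factors in WT, and its interval ran from 0.925-fold to 1.13-fold.

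**Figure D2:**
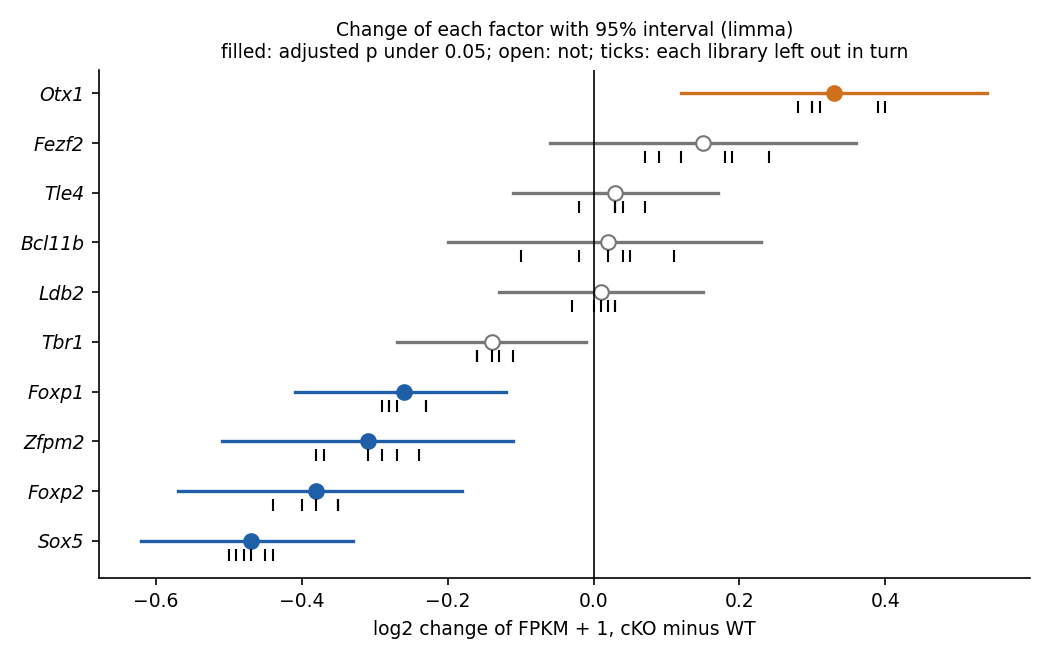
Change of each factor between cKO and WT on the log2(FPKM + 1) scale with its 95% interval from limma (n = 3 per group), filled where the adjusted p was under 0.05. Black ticks are the values with each library left out in turn: those of Sox5 stayed between −0.5 and −0.44, while those of Bcl11b ran from −0.1 to 0.11.

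The proportions of the factors within a library were compared for 6 pairs, chosen with the values known. The level of Fezf2 was 2.43, 2.46 and 2.15 times that of Sox5 in WT and 4.11, 3.97 and 3.14 times in cKO. Otx1 stood at 0.205 ± 0.0209 of Sox5 in WT and at 0.391 ± 0.0211 in cKO. The ratio of Sox5 to Tbr1, the pair that restrains Fezf2 in layer 6, was 0.337 ± 0.0175 in WT and 0.261 ± 0.00483 in cKO. Foxp2 was at 0.131 to 0.149 of Foxp1 in WT and at 0.103 to 0.123 in cKO. Fezf2 over Tbr1 and Bcl11b over Tbr1 overlapped. The groups were separate in 4 of these 6 ratios. An exact permutation test, 2-sided, gave p = 0.1 for each of the 4, which is the smallest that 3 against 3 libraries allow. The test could not reach 0.05 for any ratio, so it does not decide whether the ratios differ. Sox5 is part of each separate ratio except Foxp2 over Foxp1, so these ratios partly restate its fall.

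Markers of the neurons in which the factors act changed in both directions, most often downwards. Of 9 markers of corticothalamic neurons 5 were called lower, 2 higher and 2 not (77.8% called, against 15.8% of all genes). Their median log2 change was −0.36. The cell cycle arrest gene Rprm, the synaptotagmin Syt6, the neurotensin receptor Ntsr1 and Nxph3, a secreted ligand of neurexins, were each 2.02-fold to 2.21-fold lower. Nxph3 read 33.9, 29.5 and 34.5 FPKM in WT against 13.5, 16.5 and 18.3 in cKO (limma, adjusted p = 0.000306). Hs3st4, a heparan sulfate sulfotransferase, fell less, from 31.8 ± 0.871 to 24.6 ± 1.54 FPKM. The 2 that rose were named after their values were seen. They were the cadherin Cdh18, from 1.87 ± 0.194 to 3.81 ± 0.451 FPKM, and the adaptor Sla, from 27.1 ± 1.09 to 36.7 ± 1.21 FPKM. All 7 stayed called whichever library was left out. The 9 summed to 230 to 232 FPKM in WT against 152 to 168 in cKO, 66.0% to 72.8% of the WT mean. The summed level of the 10 factors was 95.3% to 98.7% of its WT mean in cKO and 94.9% to 103% in WT. That sum rests mostly on the upper band, with WT means of 33.8 FPKM or more and no called factor. It says little of the called factors, whose WT means were 15.6 FPKM or less.

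Of 12 markers of subcerebral neurons 4 were called lower, 2 higher and 6 not (50% called, against 15.8% of all genes). The thyroid hormone binding crystallin Crym read 17.1, 14.8 and 13.2 FPKM in WT against 5.18, 8.01 and 4.10 in cKO, a 2.61-fold lower mean (limma, adjusted p = 0.00291). The annexin partner S100a10 fell from 33.6 ± 5.99 to 19.3 ± 2.61 FPKM. The netrin-G gene Ntng1 and the cadherin Cdh22 fell from low levels, Ntng1 from 1.71 ± 0.39 to 0.73 ± 0.143 FPKM and Cdh22 4.02-fold, to 0.267 ± 0.0611 FPKM. Crim1, a transmembrane regulator of corticospinal axon targeting, rose 1.37-fold, reaching 21.6 to 24.7 FPKM (limma, adjusted p = 0.0048). The call of Etv1, a layer 5 factor named after its values were seen (limma, adjusted p = 0.0498), held without WT 2 and was lost without any of the other 5 libraries (0.157 without cKO 2). The 12 summed to 111 to 114 FPKM in WT against 93.2 to 96.0 in cKO. So members of both lists moved in both directions, and in both the genes called lower outnumbered those called higher.

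**Figure D3:**
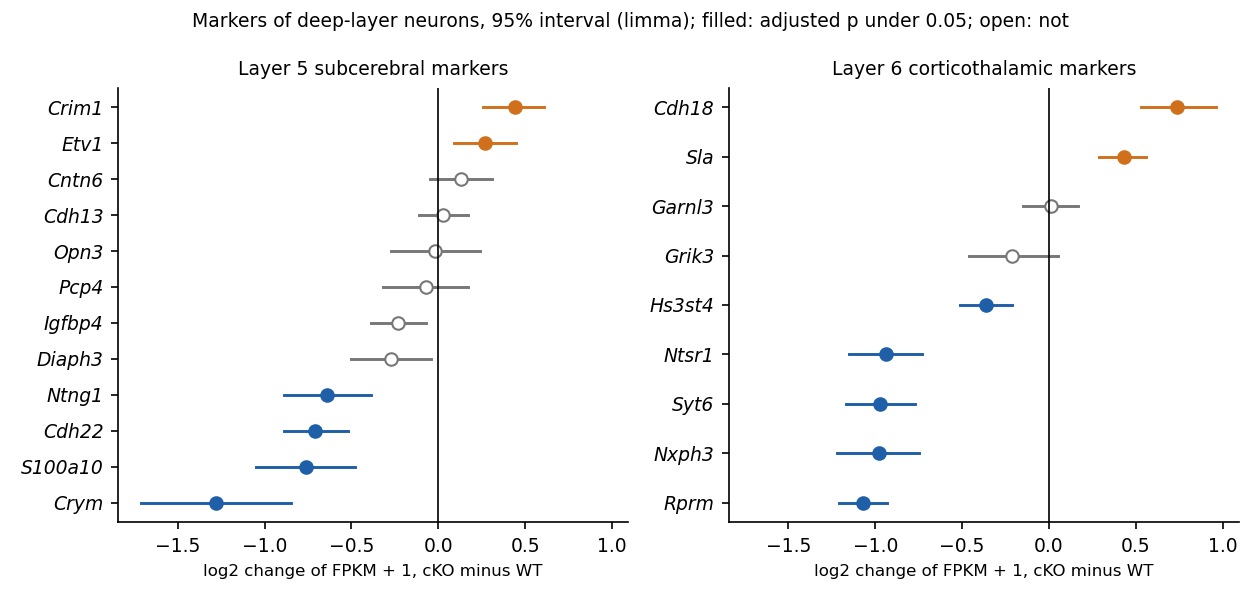
Change of the markers of layer 5 subcerebral neurons (left, 12 genes) and of layer 6 corticothalamic neurons (right, 9 genes) on the log2(FPKM + 1) scale, cKO minus WT, with 95% intervals from limma. Filled points passed the test, 4 lower and 2 higher on the left and 5 lower and 2 higher on the right.

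The factors that act on these 10 or oppose them divided as well. Of 15 such genes 4 were called higher, 2 lower and 9 not (40% called, against 15.8% of all genes). Their median log2 change was −0.03. The LIM-only factor Lmo4, which binds Ldb proteins and is found in callosal neurons, read 64.0, 67.8 and 63.0 FPKM in WT against 45.9, 43.3 and 43.7 in cKO (limma, adjusted p = 0.000361). The homeobox factor Cux1 of upper layers fell from 10.1 ± 0.636 to 6.83 ± 0.144 FPKM. The proneural factor Neurog2 rose from 5.23 ± 0.629 to 9.54 ± 1.9 FPKM and the upper-layer POU factor Pou3f2 1.32-fold, and these 4 calls held without any 1 library. Emx2 and Nr2f1, patterning factors of cortical areas named here after their values were seen, were called at adjusted p of 0.0366 and 0.0387 (limma), but Emx2 was called in 2 and Nr2f1 in 1 of the 6 fits that left out a library. Sox4 and Sox11, which act upstream of Fezf2 and are named for that role, were not called, Sox4 with 103 ± 1.59 against 91.5 ± 2.25 FPKM and Sox11 with 196 ± 18 against 206 ± 10.8 FPKM. The number called higher in this list was 2 without WT 1, WT 3, cKO 2 or cKO 3.

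Of the paralogs of the 10 factors 13 of 16 were listed (not Fezf1, Tbx21 and Otx2), 2 were called higher and none lower, a share of 15.4% that is close to the 15.8% of all genes. Eomes, the T-box factor of intermediate progenitors and a paralog of Tbr1, read 6.94, 6.999 and 6.40 FPKM in WT against 10.1, 14.1 and 11.7 in cKO (limma, adjusted p = 0.00165). Ldb1, the paralog of Ldb2, rose from 43.4 ± 3.29 to 55.3 ± 3.84 FPKM, a call lost without WT 1 (adjusted p = 0.0634) or cKO 1. Sox6, of the same group as Sox5, had means of 4.11 ± 0.277 and 3.95 ± 0.281 FPKM in WT and cKO and was not called, nor was Bcl11a with 34.8 ± 1.91 and 31.6 ± 1.24 FPKM. Among the relatives of Tle4, Tle1, Tle2, Tle3, Tle6 and Tle5 (listed as Aes) did not pass. Zfpm1 was called lower without WT 2 or without cKO 1, and with all 6 libraries 2 paralogs were called lower with a replicate block and 1 with voom on approximate reads.

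**Figure D4:**
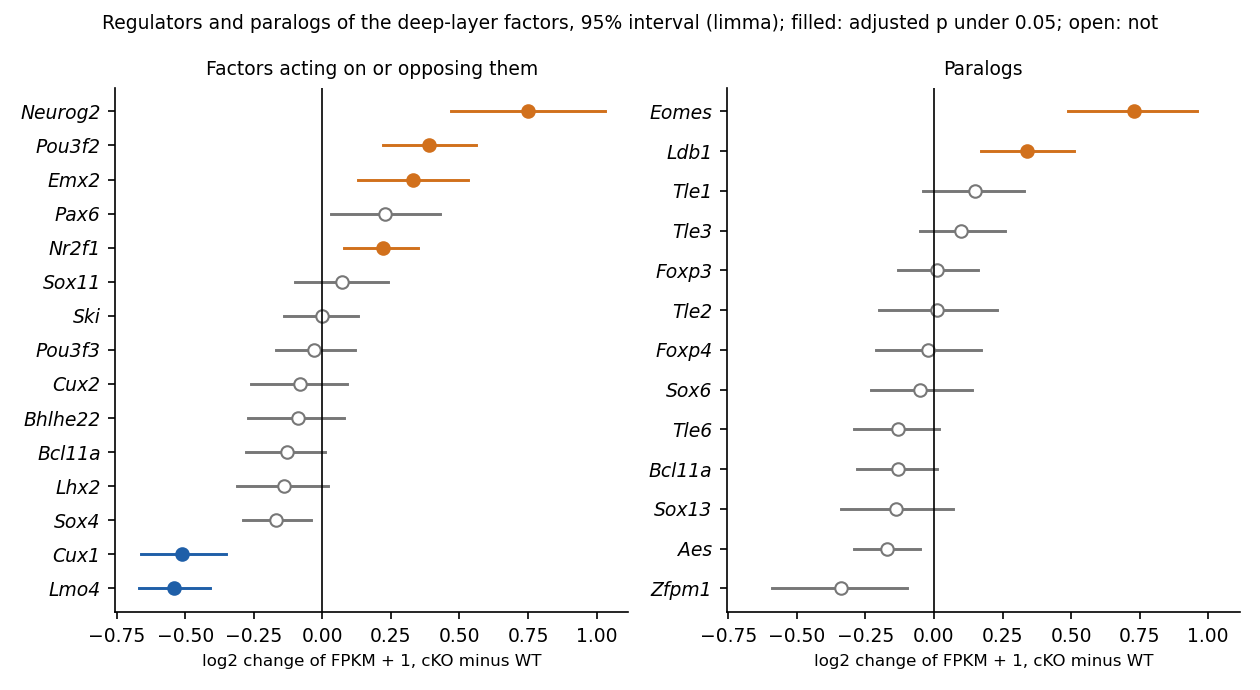
Change of 15 factors that act on or oppose the deep-layer factors (left) and of 13 paralogs (right) on the log2(FPKM + 1) scale, cKO minus WT, with 95% intervals from limma. On the left Lmo4 and Cux1 were called lower and Neurog2, Pou3f2, Emx2 and Nr2f1 higher, and on the right Eomes and Ldb1 higher.

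Genes that encode proteins binding the factors were called about as often as all genes, 5 of 29 listed (17.2%, against 15.8%). Lmo4 and Lmo2 of the LIM-only group were called lower, and Hdac1, a deacetylase of the NuRD complex, Ssbp3, which stabilises Ldb proteins, and the corepressor Ctbp2 higher. Hdac1 read 9.51, 10.2 and 9.54 FPKM in WT against 12.5, 12.3 and 13.1 in cKO, without overlap (limma, adjusted p = 0.00694). The remaining NuRD and BAF subunits of the list and Cask, a partner of Tbr1, did not pass. Ctbp2, and Lmo2, which was named after its values were seen, were each called in 1 of 6 fits that left out a library. The number called higher was 1 without WT 1, cKO 1 or cKO 2 and 2 without WT 3 or cKO 3, and the number called lower was 1 without WT 1, cKO 1 or cKO 2.

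Of 8 genes described as targets of a factor 7 were listed (not Srpx2), and 28.6% of these were called, against 15.8% of all genes. Auts2, a Tbr1 target, rose 1.55-fold, reaching 2.99 to 3.35 FPKM (limma, adjusted p = 0.00526), while the Tbr1 targets Reln and Grin2b did not pass. Mef2c, a gene repressed by Foxp2, fell 1.33-fold, to 63.8 to 66.7 FPKM (limma, adjusted p = 0.00141), and Cntnap2, likewise a Foxp2 target, did not, with means of 5.76 ± 0.247 and 5.37 ± 0.249 FPKM. The Fezf2 targets Ephb1 and Slc17a7 were not called. Ephb1 had means of 17.4 ± 0.804 and 20.1 ± 0.89 FPKM in WT and cKO (limma, adjusted p = 0.0693) and Slc17a7 9.5 ± 1.62 and 7.77 ± 0.8 FPKM (0.161).

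For each called factor the 3 genes with the highest Pearson correlation over the 6 libraries were listed, among 13070 genes with a mean of at least 1 FPKM. The points share the genotype groups, so these are descriptions. Sox5 was followed most closely by the leucine-rich repeat gene Lrrn3 (r = 0.9988), Itm2b (0.9977) and the receptor gene Kit (0.9974), all called lower. The nearest to Foxp2 were Lhpp (0.9994), Tmx2 (0.9975) and the corticothalamic marker Hs3st4 (0.9974). Those to Foxp1 were Pabpc1 (0.9976), Ass1 (0.9944) and Cspg5 (0.9941). Of these, Tmx2 and Pabpc1 were not called and the others were called lower. Mfap3 (0.998) and Ciao1 (0.9947) were near Otx1, and Tmem8b (0.9944) and Amer1 (0.9939) near Zfpm2, none of them called. Each of these 2 factors also had 1 gene without a symbol among its 3, called higher for Otx1 and lower for Zfpm2. With 6 libraries such values are common, and 416 genes had r over 0.95 with Sox5 against 41 with Zfpm2.

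Levels of other cell types and layers were read beside these results. Over all genes 15.8% were called, against 85.7% of the callosal, 44.4% of the microglia, 33.3% of the interneuron and 22.2% of the neuronal markers. Callosal and upper-layer markers had the lowest median log2 change of all the lists, −0.78, with 12 of 14 called lower and none higher and a summed level of 56.9% to 62.2% of the WT mean. Of microglia markers 4 of 9 were called lower, with sums of 31.5 to 37.5 FPKM in WT against 20.1 to 27.7 in cKO, and of interneuron markers 5 of 15, with sums of 233 to 257 against 230 to 246 FPKM. Without WT 1 these counts were 1 and 1, without WT 3 they were 2 and 3, without cKO 1 they were 2 and 1, and without cKO 2 they were 3 and 2. Of 9 genes of all or of excitatory neurons 2 were called lower, the synaptic gene Snap25 (40.3 ± 0.182 to 29 ± 1.14 FPKM) and Rbfox3 (19.2 ± 1.32 to 14.3 ± 1.3 FPKM), and none higher. Whether these lists take part in the changes of the factors was not tested.

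**Figure D5:**
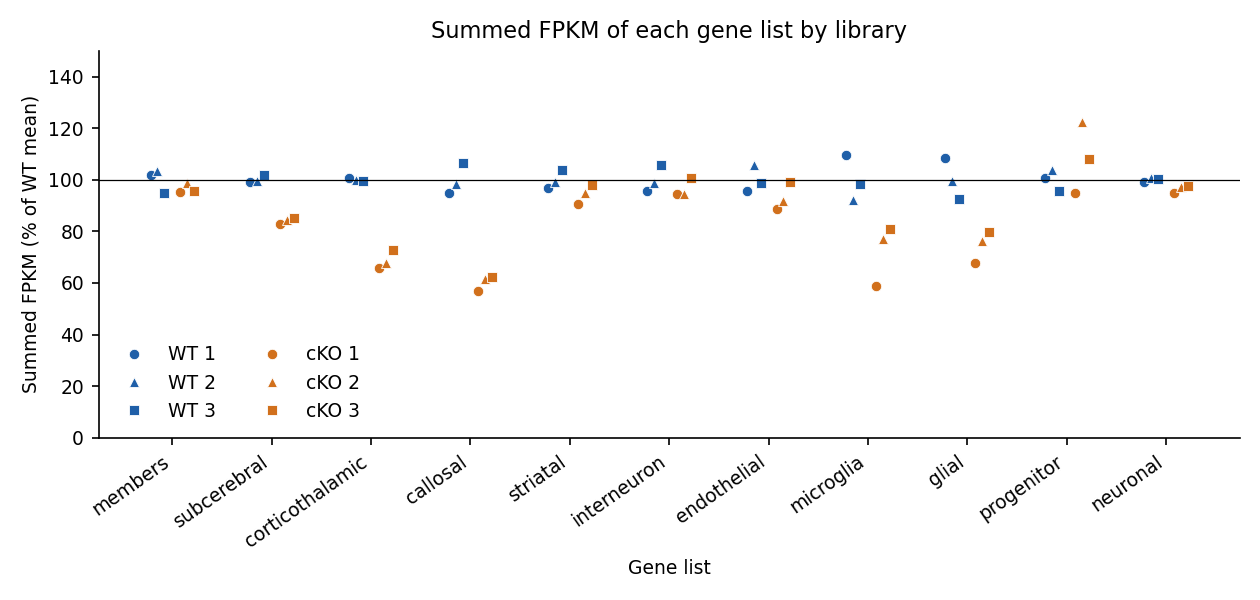
Summed FPKM of each gene list in every library as a percentage of the WT mean, WT in blue and cKO in orange, with a symbol for each library number. The 10 factors (members) summed to 95.3% to 98.7% in cKO and 94.9% to 103% in WT, a sum resting mostly on the uncalled upper-band factors. In cKO corticothalamic markers were at 66.0% to 72.8% and callosal markers at 56.9% to 62.2%.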

How the data were processed

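RNA was measured in whole neocortex of 3 WT and 3 cKO mice. The authors deposited FPKM values, 1 column per library, per the file headers. The submitters' processing notes name bcl2fastq 1.8.4, STAR 2.5.4b, featureCounts 1.6.1, R 3.4.1, DESeq2 1.22.1 and mm10. The sources used here give neither the annotation, nor the strand setting, nor the filter on low values. After 139 blank rows were dropped, 15703 genes were left. Their scaling is not stated, and median-ratio size factors were 1.003 in every library.

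The 10 factors, the gene lists and the rule for named genes were chosen with earlier results of these data known. By the rule the text names the factors, their paralogs, Tcf4, up to 4 called genes per list with the smallest p, and the 3 genes most correlated with each called factor. Other genes are marked, or are named to complete a short list or a marker check. Some items are not reported here and were left out of the lists.

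All genes were fitted with limma 3.58.1 (R 4.3.3) on log2(FPKM + 1), genotype being the single term, with mean-variance trend and robust moderation, 2-sided. Alternatives were pseudocounts of 0.1 and 0.5, only genes with a mean of 1 FPKM or more, median-ratio scaling, quantile normalisation, no trend or robust moderation, a replicate block, voom on approximate reads, each library left out and, added after seeing the data, a sex term. In simulated data (15703 genes, WT against cKO) the fit found 32% of 50 genes changed 1.25-fold and 76% of 50 changed 1.5-fold. It found 100% of 50 changed 2-fold and of 50 changed 4-fold, while 17 of 171 calls were false. Noise there was normal and far fewer genes were changed than the 2483 called in the data, so these rates need not hold for the real fit.

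Coordinates and exon lengths came from GENCODE M21. Approximate reads rest on the library size at which low values came out whole, which put 94.7% to 95.8% of them within 0.1 of a whole number.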

Additional observations from a re-analysis of the deposited data

How the results depend on the processing

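Median-ratio scaling had the same factor in each library, so it left the relative values as they were and is not counted here. Of the 10 factors, Sox5 kept its call in the other 14 alternatives, and Foxp1 and Foxp2 kept theirs in the 8 of them that used all 6 libraries. The calls of Otx1 and Zfpm2 were lost with a sex term, after which 0 factors were higher. The 5 uncalled factors stayed uncalled in the same 14, although the change of Bcl11b ran from −0.10 (without WT 3; −0.02 without cKO 2) to 0.11, that of Tle4 from −0.02 (without cKO 3) to 0.07 and that of Ldb2 from −0.03 (without WT 3) to 0.03 when 1 library was left out. A fit without 1 library leaves a group with 2. Such fits called 544 to 1572 of all genes higher and 830 to 1517 lower, and 0 to 1 of the factors higher and 1 to 4 lower. The fewest calls came without WT 1 (544 and 830), cKO 1 (566 and 830) and cKO 2 (578 and 839), and the most without WT 2. In the same fits the counts were, for paralogs, 1 to 2 higher and 0 to 1 lower, for regulators 2 to 4 higher, for partners 1 to 3 higher and 1 to 2 lower, for targets 1 to 2 lower, and for subcerebral markers 1 to 2 higher. They were 0 to 2 higher and 0 to 2 lower for striatal markers, 0 to 1 higher and 1 to 5 lower for interneuron, 0 to 2 higher and 0 to 1 lower for endothelial, 1 to 4 lower for microglia, 1 to 3 higher for progenitor and 0 to 1 higher for neuronal markers. Voom on approximate reads gave 1 paralog lower, 1 partner lower, 2 targets higher, 2 striatal markers lower, 1 thalamic higher and 1 neuronal higher. It called 1686 of all genes higher and 1364 lower. The sex term gave 2 regulators higher, 1 partner lower, 1 subcerebral marker higher and 1 progenitor marker higher. Quantile normalisation gave 1 partner lower, 1 subcerebral, 1 interneuron and 2 neuronal markers higher, and neither trend nor robust moderation 1 subcerebral and 1 progenitor marker higher. A pseudocount of 0.1 gave 1 thalamic and 1 neuronal marker higher, and 1 neuronal marker was higher with a pseudocount of 0.5 and with only genes of 1 FPKM or more. The replicate block gave 2 paralogs lower, 1 neuronal marker higher and the same 5 calls among the factors, with 1274 of all genes higher and 1541 lower. Libraries with the same number correlated at −0.043, 0.109 and −0.038 in their deviations from the group means, so the numbers were not taken as pairs. Read numbers were lowest for Otx1 and Foxp2, with about 357 to 910 reads per library. Whether depth limited their calls was not tested.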

Other observations

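The 4 factors that fell have the longest exon sequence of the 10. Their exons sum to 9536 bases (Zfpm2), 13751 (Foxp1), 14376 (Sox5) and 16346 (Foxp2), against 3047 (Fezf2) to 8111 (Bcl11b) in the others. Over all genes, those with at least the exon length of Zfpm2 were called lower in 6.53% and higher in 10.7%, while shorter genes were called lower in 8.84% and higher in 6.78%. The median log2 change of the long genes was 0.065. Whether exon length bears on the change of the 4 factors was not tested. Sox5, Foxp1 and Foxp2 also lie on the same chromosome, 6, and span 953553, 597384 and 540629 bases. Zfpm2, on chromosome 15, spans 449558 bases, and the longest span among the uncalled factors is that of Ldb2, 327549 bases. The share of chromosome 6 genes that were called was not counted. Whether chromosome or span bears on the changes was not tested.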
